A study of Arabidopsis thaliana with 24 samples.

Results

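The comparison described here is the response of the wild-type (Col-0) root to warmth: 3 libraries from roots of Col-0 seedlings kept for 4 h at 28 °C, against 3 libraries from roots of Col-0 seedlings kept for 4 h at 22 °C. These are 6 of the 24 libraries of the series, chosen by the genotype in their titles, their tissue and their temperature, and 15743 of the 33977 gene identifiers in the tables had enough counts to be tested. The seedlings of both groups germinated on medium without sucrose after 3 days of cold stratification in the dark and, as the sample labels give it, spent 5 days at 22 °C in white light before the 4 h treatment. The study's methods give 6 days. The text on the series' design reads 24 h in place of 4 h, and the genotype field of the labels goes against the titles for part of the mutant samples, so genotype was taken from the titles. Further comparisons are used to show where the Col-0 root differed: the roots of hy5-215 seedlings at 28 °C and 22 °C, with a mutant allele of HY5, and the tissue labelled hypocotyl (called shoot here, after the study's own usage) of Col-0 at 28 °C and 22 °C, each with 3 libraries per temperature. The study's methods call the replicates independent and biological, while the labels say neither whether they came from separate cultures nor how many seedlings were pooled, so p-values measure the spread between these libraries, part of which may be technical.

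Warmth well below the range that damages proteins makes Arabidopsis seedlings elongate, a response called thermomorphogenesis. In the hypocotyl this runs through the photoreceptor phyB, the transcription factor PIF4 and auxin, while HY5, a bZIP transcription factor that promotes light responses, also acts in the root. Heat stress transcription factors induce chaperones, which keep proteins folded, and a warm pulse also touches genes for water transport, cell walls, nutrients and defence compounds in roots. The question addressed by the comparison is which root genes respond within hours of a mild rise in temperature.

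Messenger RNA was measured by 3′Tag-Seq, in which fragments from the 3′ end of transcripts are counted per gene. The 28 °C libraries held 2455073, 2625364 and 2627108 counts and the shallower 22 °C libraries held 1828946, 1700048 and 1212281 counts, so that 1 count was worth 0.38 to 0.403 CPM, the count scaled to the library's TMM-normalised total, at 28 °C and 0.567 to 0.827 CPM at 22 °C. Correlations of log2 CPM between replicates were 0.961 to 0.972 at 28 °C and 0.934 to 0.959 at 22 °C, across genes, which are not independent replicates. In a multidimensional scaling of the 6 libraries, replicate 3 of 22 °C, the shallowest, lay apart from its group (−0.74 on the dimension that held 22.4% of the variance, against 0.68 and 0.44 for the other 22 °C libraries), and the list counts that change without it are given beside the lists. PYK10, an abundant root β-glucosidase, had 4844, 4865 and 4962 CPM at 28 °C, against 6484, 7310.5 and 7348 CPM at 22 °C, and 1385 to 1718 CPM in the Col-0 shoot libraries. The 14 root marker genes tested had a median log2 fold change of −0.10, with 4 above 0 and 1, RSL4, called higher. The summed level of the phloem and xylem markers was 173, 193 and 214 CPM at 28 °C, against 141, 139.6 and 134 CPM at 22 °C, so it was higher in each 28 °C library. The summed level of 17 photosynthetic marker genes was 1531, 1216 and 1485 CPM at 28 °C and 2244, 1968 and 2321 CPM at 22 °C, far under the 72191 to 87165 CPM of the Col-0 shoot libraries. The groups did not overlap on this sum, which was lower in the 28 °C roots, and the part of these marker levels in the results below was not tested. In these bulk samples, fewer cells of a type and less RNA per cell cannot be told apart.

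Genes were called at a 2-fold change or more with a Benjamini-Hochberg adjusted p no higher than 0.05 (edgeR, quasi-likelihood), which are the study's own cutoffs. By this rule 149 genes (0.946% of those tested) were higher at 28 °C and 235 genes (1.49%) were lower. Hereafter rose, fell and called mean past both cutoffs, and fold changes are log2 of 28 °C over 22 °C with an approximate standard error. The genes that rose had a median log2 fold change of 1.30, with 25 of them up by 4-fold or more, and those that fell had a median of −1.41, with 51 of them down by 4-fold or more. The median over all genes tested was 0.01. A gene low at either temperature can pass the filter on low counts through the other group alone, which favours a call toward that group. This held for called members of several lists below, among them HSFA1E and CBF2, which fell, and MRN1, HSA32, XTH33 and IAA19, which rose. Counts and medians of lists with such members describe the data and are no test. CPM values of the temperature groups did not overlap for 374 of the 384 called genes (97.4%), as against 24.6% of all genes tested, though the calls and the overlap rest on the same libraries. Of the called genes, 67 overlap a gene on the opposite strand. Since the strand setting of the authors' counting is not given in the sources used here, reads of such genes and their partners may be mixed.

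Chaperone genes were among the largest rises. The list of small heat shock protein genes had 5 members with enough counts to be tested, and 9 further members were too low to test. These 5 rose, with a median log2 fold change of 3.52. They passed the filter on low counts through their 28 °C libraries, since their 22 °C counts alone fell short of it. The filter thus favoured a rise, and nothing is read from this share or median. Without replicate 3 of 22 °C, 6 members could be tested and 6 rose. Small heat shock proteins hold unfolding proteins in a soluble state. AT5G51440, a small heat shock protein gene of the HSP20 family, had 41.5, 56.7 and 66.9 CPM at 28 °C, against 2.27, 7.89 and 4.14 CPM at 22 °C, a log2 fold change of 3.52 ± 0.32 (adjusted p = 8.93e-07). AT1G07400 had 10.1, 12.2 and 21.3 CPM at 28 °C, against 2.84, 0.607 and 0.827 CPM at 22 °C. HSP17.4 was nearly silent at 22 °C: it had 74 counts over the 28 °C libraries and 1 count over the 22 °C libraries, a ratio of 44.2 per unit of depth with an exact 95% interval of 7.69 to 1.77e+03 that covers counting error only. AT1G53540 had 57 counts and 1 count, a ratio of 34 (5.87 to 1.37e+03). AT2G29500 had 14.1, 27.8 and 44.1 CPM at 28 °C, against 4.54, 9.11 and 13.2 CPM at 22 °C (log2 fold change 1.74 ± 0.39, adjusted p = 0.0102). The call of AT2G29500 was lost without replicate 3 of 28 °C, replicate 1 of 22 °C or replicate 2 of 22 °C, with adjusted p up to 0.0778.

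Among 32 large chaperones and co-chaperones, 6 rose and none fell, with a median over the list of 0.31, and 7 rose without replicate 3 of 22 °C. HSP90.1, the heat-inducible cytosolic member of the HSP90 chaperones, had 96.7, 139 and 175 CPM at 28 °C, against 17.0, 17.6 and 9.93 CPM at 22 °C (log2 fold change 3.16 ± 0.24, adjusted p = 1.08e-07). AT5G48570, encoding an FKBP-type peptidyl-prolyl isomerase, had 145, 159.9 and 160.5 CPM at 28 °C, against 23.3, 18.8 and 18.2 CPM at 22 °C, and had the smallest adjusted p of all genes that rose (2.89e-09). HSP70 (AT3G12580) had 191, 232 and 294 CPM at 28 °C, against 35.2, 48.6 and 57.9 CPM at 22 °C. Each of these genes thus stood several-fold above its 22 °C level in every 28 °C library. Hop3, a co-chaperone that links HSP70 to HSP90, changed by 2.40 ± 0.20 and HSA32, a protein needed to keep acquired heat tolerance, by 2.45 ± 0.45. MBF1C is counted in this list, though it is a transcriptional coactivator of heat tolerance and not a chaperone. It had 95.1, 102 and 101 CPM at 28 °C, against 36.3, 39.5 and 41.4 CPM at 22 °C. Hop3 and MBF1C overlap genes on the opposite strand. HSP101, the disaggregase of acquired thermotolerance, also overlaps such a gene and stayed just under 2-fold at 0.97 ± 0.26 (adjusted p = 0.0288). The adjusted p of HSP101 was above the threshold under 7 of 13 other settings (up to 0.144), among them the removal of replicate 1 or 2 of either temperature, while without replicate 3 of 22 °C it passed both cutoffs (adjusted p = 0.0175). The most abundant chaperone, the constitutive HSC70-1, had 3555, 3656 and 3182 CPM at 28 °C, against 3338, 3439 and 2973 CPM at 22 °C (0.09 ± 0.07, adjusted p = 0.521).

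**Figure D1:**
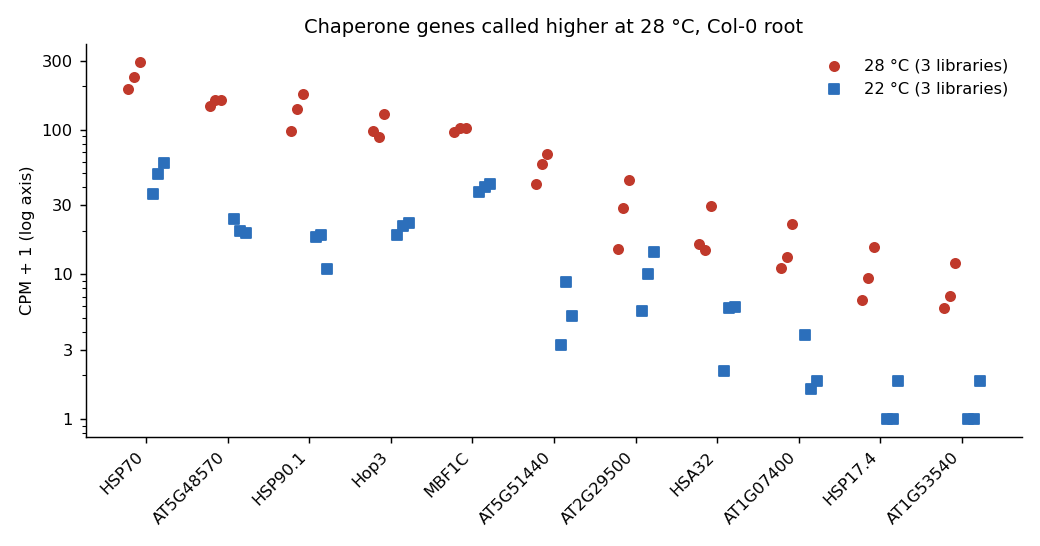
CPM + 1 (log axis) of the 11 genes of the chaperone lists that rose at 28 °C in the Col-0 root, with a point for each of the 3 libraries at 28 °C (red circles) and at 22 °C (blue squares). MBF1C, a transcriptional coactivator, is counted among them. For each of the 11 genes all 28 °C points lie above all 22 °C points, from HSP70 at the highest level to AT1G53540 at the lowest.

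Heat stress transcription factors bind heat shock elements, arrays of the unit GAA in alternating orientation. The form GAANNTTCNNGAA, searched on both strands of the 300 bases before each annotated start in TAIR10.1, was found for 2 of the 5 small heat shock protein genes, for 5 of the 149 genes that rose (3.36%) and for 3 of 231 genes that fell (1.3%), compared with 133 of 27443 protein-coding genes (0.485%) and 78 of 15568 tested genes (0.501%). The shorter form GAANNTTC was found for 22 of the 149 genes that rose (14.8%), for 36 of 231 genes that fell (15.6%) and for 1704 of 15568 tested genes (10.9%). It was also found for 4 of the 12 rapid-response genes that fell (33.3%), which are described below. Both small heat shock protein genes with the longer form are shown because they had 1 count each at 22 °C. Stretches of 120 bases upstream of the gene are printed in the direction of the gene with the elements in capitals, for HSP17.4 from chr3:16984868-16984987 (minus strand) and for AT1G53540 from chr1:19980179-19980298 (plus strand), both of them RefSeq sequence of TAIR10.1.
HSP17.4: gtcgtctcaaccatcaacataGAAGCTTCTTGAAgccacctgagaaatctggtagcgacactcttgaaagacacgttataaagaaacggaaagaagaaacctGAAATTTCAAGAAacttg
AT1G53540: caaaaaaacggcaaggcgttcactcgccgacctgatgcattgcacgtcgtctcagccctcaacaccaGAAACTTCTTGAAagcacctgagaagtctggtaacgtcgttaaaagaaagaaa
The window of HSP17.4 holds 2 matches and that of AT1G53540 holds 1. HSP90.1 also has a match. The 300-base windows of AT1G53540 and HSP90.1 run into a neighbouring gene. A match describes the letters of the window and is not shown to be a bound site.

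The heat stress transcription factors were not called higher, while the coactivator MBF1C, counted in the chaperone list above, rose. Of 16 heat stress transcription factors and their partners tested, 3 fell and none rose, with a median of −0.00, and 2 fell without replicate 3 of 22 °C. DREB2A, a drought and heat regulator, had 12.1, 17.5 and 11 CPM at 28 °C, against 23.8, 31.0 and 48.8 CPM at 22 °C (−1.31 ± 0.28, adjusted p = 0.00597). HSFC1 changed by −1.06 ± 0.24, a call lost without replicate 2 of 28 °C (adjusted p = 0.0715) and, at −0.87, short of 2-fold without replicate 3 of 22 °C. HSFA1E had 2.42, 3.43 and 3.42 CPM at 28 °C, against 8.51, 6.68 and 13.2 CPM at 22 °C, and its call was lost under 8 of 12 other settings, among them the removal of any of the 6 libraries. The 28 °C counts of HSFA1E fell short of the filter on low counts, which it passed through its 22 °C libraries. HSFA2, which amplifies the heat response, had 8.06, 12.6 and 11 CPM at 28 °C, against 7.94, 4.25 and 4.96 CPM at 22 °C, and its value of 0.86 ± 0.38 missed the threshold (adjusted p = 0.211).

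The chaperone response was shared with the other material. All 5 small heat shock protein genes and all 6 called members of the large chaperone list, MBF1C among them, were also called higher in the hy5-215 root. There 1.11% of the 16445 genes tested were higher and 0.626% lower. In the Col-0 shoot (2.15% of 15697 genes higher, 3.15% lower), 3 of 4 small heat shock protein genes tested and the same 6 members of the large chaperone list were called higher. The difference between the temperature effects was tested by an interaction term, which passed at adjusted p of at most 0.05 for 1.41% of genes between the root genotypes and for 2.78% between the Col-0 tissues. None of these 11 genes passed between the genotypes. AT5G51440 (1.90 ± 0.45 log2 units more in the root) and MBF1C (−0.996, the root response being the smaller) passed between the tissues.

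Water channel genes were higher almost throughout the family, mostly by less than 2-fold. Of 18 aquaporins tested, 17 had a log2 fold change above 0, with a median of 0.64: 1 rose by the full rule, and 13 more had an adjusted p of at most 0.05 with a smaller change. Over all 15743 genes tested, 8035 were above 0 and 264 were higher by adjusted p alone. Aquaporins carry water across the plasma membrane (PIP) and the vacuole membrane (TIP). DELTA-TIP had 503, 546 and 754 CPM at 28 °C, against 303, 287 and 214 CPM at 22 °C (1.16 ± 0.14, adjusted p = 3.86e-05). TIP2 (AT3G26520), the most abundant member, had 2043, 2116 and 1898 CPM at 28 °C, against 1184, 1168 and 1203 CPM at 22 °C (0.77 ± 0.07, adjusted p = 1.51e-06). GAMMA-TIP changed by 0.84 ± 0.10 and the plasma membrane gene PIP2A by 0.59 ± 0.08. PIP2;8 was the exception, at −0.82 ± 0.25 (adjusted p = 0.0517). Summed over the list, aquaporins held 12329, 12547 and 12655 CPM at 28 °C, against 8070, 7968 and 7690 CPM at 22 °C. The groups were tightly separated, and the family's share of the counts was higher in the warm root.

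In hy5-215 roots no aquaporin was called in either direction and the median was 0.04. The interaction passed for 10 of the 18 aquaporins, each with the larger value in Col-0. TIP2 had 1887, 2001 and 2006 CPM in hy5-215 roots at 28 °C, against 1827, 1873 and 1775 CPM at 22 °C, a difference of 0.65 ± 0.12 between the genotypes (adjusted p = 0.00201). The summed level in hy5-215 roots was 15515 to 15998 CPM at 28 °C and 14956 to 16215 CPM at 22 °C, when the 12 root libraries were scaled together. On this sum both hy5-215 groups were above both Col-0 groups, and Col-0 at 22 °C was lowest. In the Col-0 shoot the median was 0.73, with 3 aquaporins called higher and 1 lower, and the interaction with tissue passed for none.

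Other genes of growth and cell walls moved individually. GASA1, a gibberellin-regulated peptide gene, had 899, 1014 and 1127 CPM at 28 °C, against 455, 468 and 377 CPM at 22 °C (1.22 ± 0.10, adjusted p = 3.72e-07). Of 24 xyloglucan endotransglucosylase/hydrolases, which cut and rejoin wall polymers, 3 rose and 2 fell. XTH15 had 140.2, 139 and 148 CPM at 28 °C, against 59.0, 60.1 and 38.9 CPM at 22 °C, and XTH31 had 122, 134 and 113 CPM at 28 °C, against 281, 256 and 232 CPM at 22 °C. XTH18 (1.16 ± 0.26) and XTH33 (14, 25 and 31 counts at 28 °C, and 1, 3 and 0 counts at 22 °C) were the others that rose, and XTH20 fell by 2.18 on the log2 scale. The call of XTH18 was lost without replicate 2 of 22 °C (0.97, adjusted p = 0.113) and short of 2-fold, at 0.84, without replicate 3 of 28 °C. Members of the same family therefore changed in both directions. Among 18 expansins, which loosen walls, edgeR and DESeq2 each called 0, while 6 had an unadjusted p under 0.05. Among 27 cyclins and CDKs, drivers of the cell cycle, both tools also called 0, and 3 had an unadjusted p under 0.05. The most abundant of them, CDC2 had 61.2, 62.8 and 71.9 CPM at 28 °C, against 62.9, 55.2 and 66.2 CPM at 22 °C.

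The barrier of the endodermis contributed CASP5, a membrane protein that marks out the Casparian strip. CASP5 had 32.6, 36.2 and 32.7 CPM at 28 °C, against 5.1, 9.11 and 9.1 CPM at 22 °C (2.14 ± 0.27, adjusted p = 3.86e-05). CASP1, CASP2, PER64 and ESB1, which act in the same strip, had values of 0.57 to 0.74 with adjusted p of 0.00504 to 0.0162 (0.0514 for ESB1 without replicate 2 of 28 °C). FAR5, which makes fatty alcohols for suberin, went the other way, with 24.2, 21.3 and 27.4 CPM at 28 °C, against 95.3, 71.6 and 50.5 CPM at 22 °C. Over the 16 Casparian strip and suberin genes tested, the median was 0.16.

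Root hair genes had a median of 0.55 over 18 tested, and 1 of them rose. RSL4, the transcription factor that sets root hair growth, had 17.7, 21.3 and 17.9 CPM at 28 °C, against 4.54, 11.5 and 1.65 CPM at 22 °C (adjusted p = 0.0154), a call lost without replicate 2 of 28 °C, without replicate 1 of 22 °C or with counts thinned to the shallowest library (adjusted p up to 0.0796). The summed level of the list was 1414, 1346 and 1575 CPM at 28 °C, and 1337, 1046 and 510 CPM at 22 °C, so that replicate 3 of 22 °C was far below the other 22 °C libraries. Without that library the median was 0.27 and RSL4 changed by 1.25 ± 0.35 (adjusted p = 0.0283).

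Of 20 circadian clock genes, 2 rose and 1 fell. LHY, a morning transcription factor of the clock, had 5.64, 4.19 and 3.42 CPM at 28 °C, against 26.1, 50.4 and 33.1 CPM at 22 °C (−3.04 ± 0.32, adjusted p = 5.63e-06). GI, an evening gene, had 48.7, 50.6 and 35.7 CPM at 28 °C, against 15.3, 22.5 and 15.7 CPM at 22 °C (1.32 ± 0.22, adjusted p = 0.000945). CCA1, the close partner of LHY, missed the threshold at −0.84 ± 0.27 (adjusted p = 0.0721). LHY was also called lower in the hy5-215 root and in the Col-0 shoot. Without replicate 3 of 22 °C, 4 clock genes rose and 1 fell.

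Rapid-response genes were among those that fell. These encode transcription factors, calcium-binding proteins and RNA-decay factors whose transcripts appear within minutes of touch, wounding, cold or microbial signals. Of 32 tested, 12 fell and none rose, with a median of −0.85. RRTF1, WRKY40, BAP1 and CAF1a passed the filter on low counts through their 22 °C libraries alone, their 28 °C counts falling short. The filter thus favoured a fall for such members, and nothing is read from this share or median. CAF1a, a deadenylase that shortens poly(A) tails, had 2.82, 8 and 11 CPM at 28 °C, against 53.3, 54.6 and 69.5 CPM at 22 °C (−2.99 ± 0.29, adjusted p = 1.89e-06). STZ, a zinc-finger repressor of abiotic stress responses, had 5.24, 5.33 and 12.5 CPM at 28 °C, against 44.2, 47.4 and 69.5 CPM at 22 °C. RHL41, a related zinc-finger protein, had 20.1, 21.7 and 17.5 CPM at 28 °C, against 79.4, 86.8 and 113 CPM at 22 °C. The highest 28 °C library of each was below the lowest 22 °C library by 3-fold or more.

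RRTF1, an ERF transcription factor of redox responses, had 0 counts in all 28 °C libraries and 30, 22 and 35 counts at 22 °C. With a floor of 3 counts per library (1.16 CPM), it was at least 17-fold lower at 28 °C. WRKY40 (−2.46 ± 0.36) and BAP1 (−2.42 ± 0.36), which act in defence and in the control of cell death, had 4.48 ± 2.42 and 5.1 ± 3.23 CPM at 28 °C, against 25.4 ± 6.08 and 28.1 ± 6.15 CPM at 22 °C (SD, n = 3 each). ERF104, ZAT6, SZF1, TCH2, AT5G51190 and WRKY48 fell by between 1.11 and 1.63 on the log2 scale. TCH2, a calmodulin-like touch gene, had 27.8, 39.6 and 41.4 CPM at 28 °C, against 60.1, 74.7 and 104 CPM at 22 °C. Its log2 fold change was short of 2-fold, at −0.89, without replicate 3 of 22 °C. TCH3, another calmodulin-like touch gene, had the value farthest in the other direction (0.77, adjusted p = 0.08). ORA47, an ERF regulator of jasmonate synthesis outside the list, had 3 counts at 28 °C and 57 at 22 °C, a ratio of 31.8 in favour of 22 °C (exact 95% interval 10.4 to 159).

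Genes of unknown or little known function moved with this group among the largest falls. RTFL12, one of a family of small peptides that restrain cell proliferation when overproduced, had 2, 3 and 2 counts at 28 °C and 36, 55 and 36 counts at 22 °C (−4.85 ± 0.41, adjusted p = 3.72e-07). NUDT21, a nudix hydrolase, had 16.5, 19.4 and 20.5 CPM at 28 °C, against 116, 126 and 157 CPM at 22 °C (−2.81 ± 0.17, adjusted p = 5.28e-09). AT1G56660, an abundant transcript, had 329, 319 and 313 CPM at 28 °C, against 927, 1098 and 1287 CPM at 22 °C (−1.78 ± 0.11, adjusted p = 4.35e-09). ACS6, which makes the precursor of ethylene, had 6.44, 9.9 and 12.5 CPM at 28 °C, against 41.4, 54.0 and 52.1 CPM at 22 °C. AT3G10930, AT4G27652 and AT4G27657 fell by 2.68, 2.86 and 3.25 on the log2 scale.

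Many rapid-response promoters carry CGCGTT, the core of the rapid stress response element. In the 300-base windows it was found on either strand for 846 of 27443 protein-coding genes (3.08%) and for 499 of 15568 tested genes (3.21%). It was found for 15 of 231 genes that fell (6.49%) and for 6 of 149 genes that rose (4.03%). Among the 32 rapid-response genes tested it was found for 1 (3.12%), which was among the 12 that fell. That gene, TCH2, is shown because the core occurs there inside a palindrome (capitals) at 2 places, which gives 4 matches over the strands. The stretch is chr5:14999620-14999739 (minus strand) of TAIR10.1, from RefSeq.
TCH2: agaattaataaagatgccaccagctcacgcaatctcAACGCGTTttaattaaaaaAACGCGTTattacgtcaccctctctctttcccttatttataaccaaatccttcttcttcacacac

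The rapid-response genes were next read in the hy5-215 root. Of the 11 called members that could be tested in hy5-215 roots, 8 had a value above 0, 1 was called higher (CAF1a) and none was called lower, and over the whole list 6 were higher and 1 lower in hy5-215, with a median of 0.56. The interaction passed for 10 of the 12 called members and for 15 of the 32 tested, but the called members were chosen on the same Col-0 libraries, so nothing is read from these counts. CAF1a had 11.9, 8.89 and 15.6 CPM in hy5-215 roots at 28 °C, against 4.52, 3.40 and 6 CPM at 22 °C, and the temperature effects differed by −4.37 ± 0.45 (Col-0 minus hy5-215, adjusted p = 5.35e-07). NUDT21 had 17.7, 12.1 and 17.5 CPM in hy5-215 roots at 28 °C, against 14.9, 25.2 and 13.3 CPM at 22 °C (difference −2.60 ± 0.31). RRTF1 was above 0 in only 1 hy5-215 root library of each temperature, at 0.322 CPM at 28 °C and 0.34 CPM at 22 °C. For these 3 genes the Col-0 libraries at 22 °C lay above those of the other 3 root groups.

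**Figure D2:**
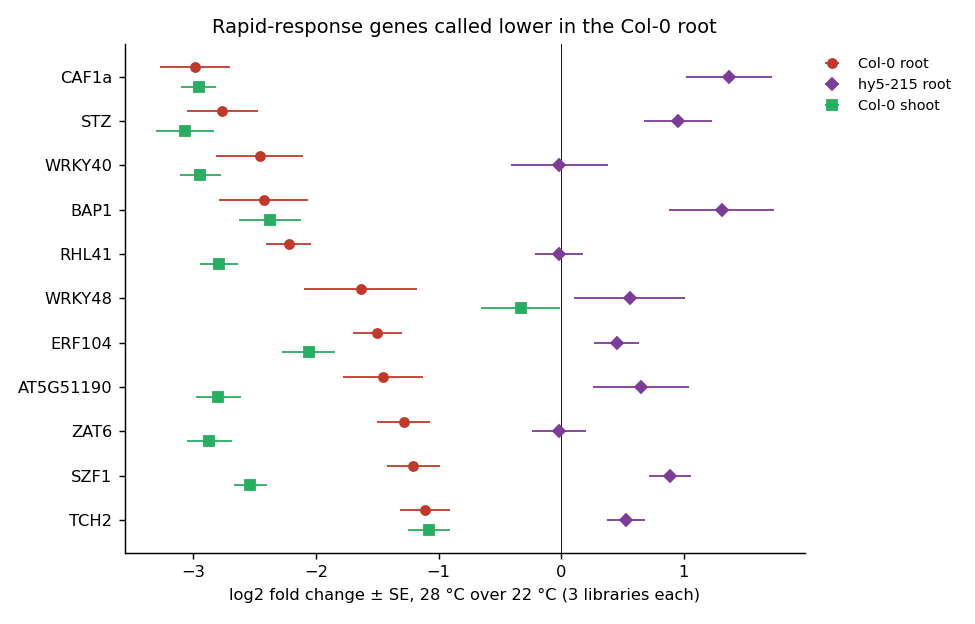
Log2 fold change of 28 °C over 22 °C with its standard error (x axis) for 11 rapid-response genes that fell in the Col-0 root, in the Col-0 root (red circles), the hy5-215 root (purple diamonds) and the Col-0 shoot (green squares), 3 libraries per temperature each. All Col-0 values lie below 0 in both tissues, and 8 of the 11 hy5-215 values lie above 0. RRTF1 is left out because it had too few counts in hy5-215 roots to be tested there.

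This was counted over all genes, with the CPM of 12 root libraries scaled together. The 3 Col-0 libraries at 22 °C lay above the other 9 root libraries for 745 of the 15743 genes tested (4.73%) and below them for 602 (3.82%). Among the 235 genes that fell in the Col-0 root, 120 (51.1%) had the Col-0 22 °C libraries above the other 9, and among the 149 that rose, 60 (40.3%) had them below. The called genes were chosen on 6 of these 12 libraries, which raises both shares. The lists differed widely: 11 of 12 rapid-response genes, 4 of 4 flavonoid genes, 2 of 7 hypoxia-responsive genes, 2 of 12 aliphatic glucosinolate genes and none of the 11 genes of the chaperone lists that were called had the Col-0 22 °C libraries apart from the other 9 in the direction of the call.

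Among the genes that rose in Col-0 roots, 145 could be tested in hy5-215 roots: 33 were called higher and none lower there, 121 had the same sign, and the median was 0.49. Among the genes that fell, 202 could be tested: 29 were called lower and 5 higher in hy5-215, 134 had the same sign, and the median was −0.23. The interaction passed for 20 of the genes that rose and 73 of those that fell, but the genes were chosen on the same Col-0 libraries and nothing is read from those counts. In the Col-0 shoot, 37 of 90 genes that rose in the root were called higher and 1 lower, and 70 of 174 genes that fell in the root were called lower and 2 higher. Of the 11 rapid-response genes that fell in the root and could be tested in the shoot, 10 were called lower there. ZAT6 and SZF1 fell more in the shoot, with differences of 1.58 and 1.33 (Col-0 root minus Col-0 shoot, adjusted p = 0.00129 and 0.00316).

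The enzymes that build methionine-derived (aliphatic) glucosinolates, the sulfur-rich defence compounds of the cabbage family, were lower together. This list was added after the values were seen, so its count describes the data and is no test. Of 17 members tested, 12 fell and none rose, with a median of −1.64. BCAT4, the aminotransferase that opens the pathway, had 7.65, 7.62 and 12.2 CPM at 28 °C, against 52.7, 38.2 and 31.4 CPM at 22 °C (−2.17 ± 0.26, adjusted p = 3.15e-05). MAM1, the chain-elongating synthase, had 6.04, 4.95 and 3.04 CPM at 28 °C, against 21.0, 23.7 and 14.9 CPM at 22 °C. CYP83A1, an oxidase of the core pathway, had 7.25, 7.23 and 14.1 CPM at 28 °C, against 43.1, 33.4 and 36.4 CPM at 22 °C. Each step named so far was lower in every 28 °C library than in any 22 °C library.

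The isopropylmalate dehydrogenase IMD1, which serves the same chain elongation, had 31.0, 27 and 34.2 CPM at 28 °C, against 133, 100.2 and 81.9 CPM at 22 °C (−1.78 ± 0.18, adjusted p = 5.4e-06). The pathway's regulator MYB28 had 6.44, 9.52 and 7.6 CPM at 28 °C, against 12.5, 16.4 and 10.8 CPM at 22 °C, and was not called (−0.76 ± 0.33, adjusted p = 0.194). In hy5-215 roots 8 members fell and the median was −0.89, and the interaction between genotypes passed for none. In the Col-0 shoot 3 of 16 fell, with a median of −0.46, and the interaction between tissues passed for 4. Nitrile specifier proteins, which steer glucosinolate breakdown, fell as well. NSP1 had 429.7, 438 and 406 CPM at 28 °C, against 945, 1021 and 1036 CPM at 22 °C (−1.24 ± 0.09, adjusted p = 3.81e-08), and NSP3 had 3.22, 4.19 and 5.32 CPM at 28 °C, against 36.3, 34.6 and 9.1 CPM at 22 °C. NSP1 differed between the root genotypes by −1.21 ± 0.16 (adjusted p = 1.48e-05).

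**Figure D3:**
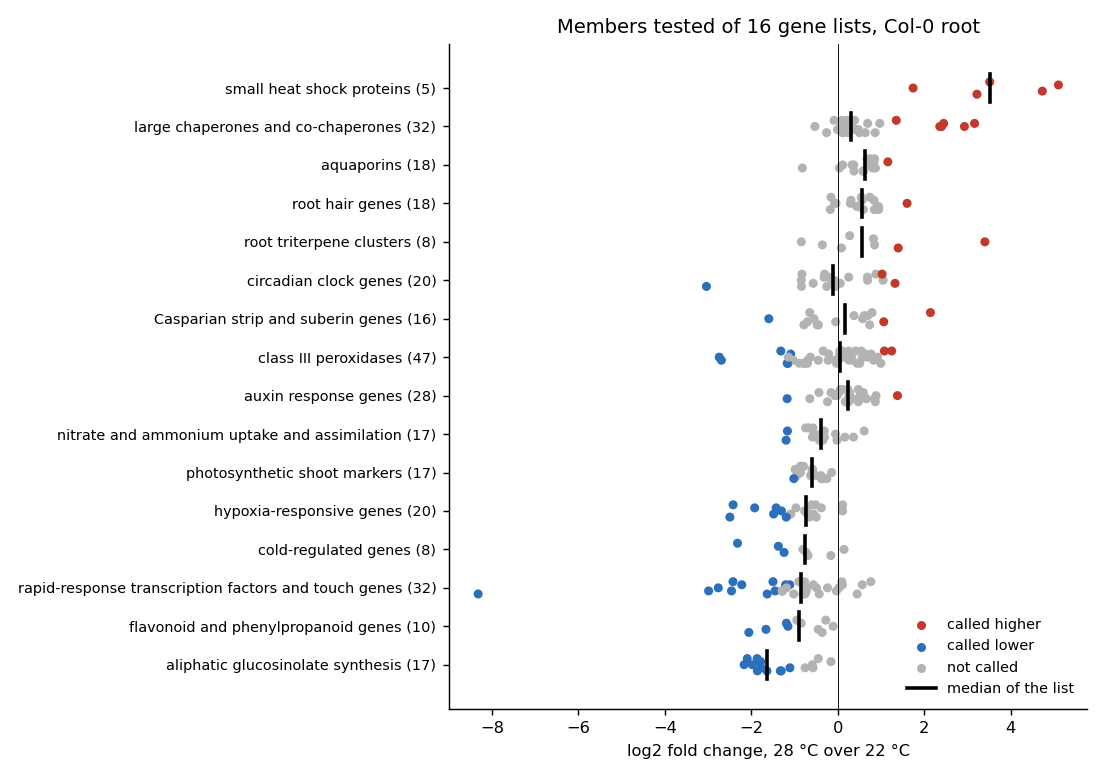
Log2 fold change of 28 °C over 22 °C (x axis) for each tested member of 16 gene lists in the Col-0 root, with the number tested after each name. Points are genes, called higher (red), called lower (blue) or not called (grey), and the bar is the list's median. Small heat shock proteins lie farthest to the right with a median of 3.52, aquaporins form a narrow group at 0.64, and aliphatic glucosinolate genes lie farthest to the left with a median of −1.64. The small heat shock protein genes tested passed the filter on low counts only through their 28 °C libraries. Some called members of other lists also passed it only through the group where they were higher.

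Hypoxia-responsive genes were lower in part. Of 20 tested, 7 fell and none rose, with a median of −0.74. AT4G33070, a pyruvate decarboxylase of ethanol fermentation, had 52.4, 56.0 and 37.3 CPM at 28 °C, against 267, 196 and 81.1 CPM at 22 °C (−1.92 ± 0.27, adjusted p = 0.000166). HB1, a haemoglobin, had 65.6, 65.1 and 39.9 CPM at 28 °C, against 209, 171 and 71.1 CPM at 22 °C. ADH1, the alcohol dehydrogenase of the same pathway, which overlaps an opposite-strand gene, had 145, 119 and 91.3 CPM at 28 °C, against 426, 333 and 107 CPM at 22 °C (−1.30 ± 0.29, adjusted p = 0.00908). In ADH1 and in AT5G10040, an uncharacterized gene that also overlaps one on the opposite strand (5.64, 3.81 and 7.22 CPM at 28 °C, against 47.6, 32.2 and 6.62 CPM at 22 °C) the temperature groups overlapped, because replicate 3 of 22 °C was far below the other 22 °C libraries.

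The summed level of the hypoxia list was 1431, 1221 and 756 CPM at 28 °C and 2559, 2113 and 1050 CPM at 22 °C, so replicate 3 was the lowest library in both groups. Without replicate 3 of 22 °C, 8 members fell and the median was −0.98. DESeq2 did not call ADH1, HB1, AT5G10040 or the sucrose synthase SUS4, whose adjusted p ran up to 0.319 over the settings tried. ADH1 and SUS4 were also lost without replicate 1 or replicate 2 of 22 °C, and SUS4 without replicate 2 of 28 °C. ERF73 was lost without replicate 1 or 2 of 22 °C, and NIP2;1 under 5 of 11 other settings, among them the removal of replicate 1 or 3 of 28 °C or replicate 1 or 2 of 22 °C. Of the 7 called hypoxia genes, AT4G33070 alone kept its call under all 13 other settings. In hy5-215 roots 4 members of the list were higher and none lower, with a median of 0.55. ADH1 had 66.1, 61.9 and 16.1 CPM in hy5-215 roots at 28 °C, against 35.3, 19.4 and 6 CPM at 22 °C (difference −2.63 ± 0.53, adjusted p = 0.00483).

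**Figure D4:**
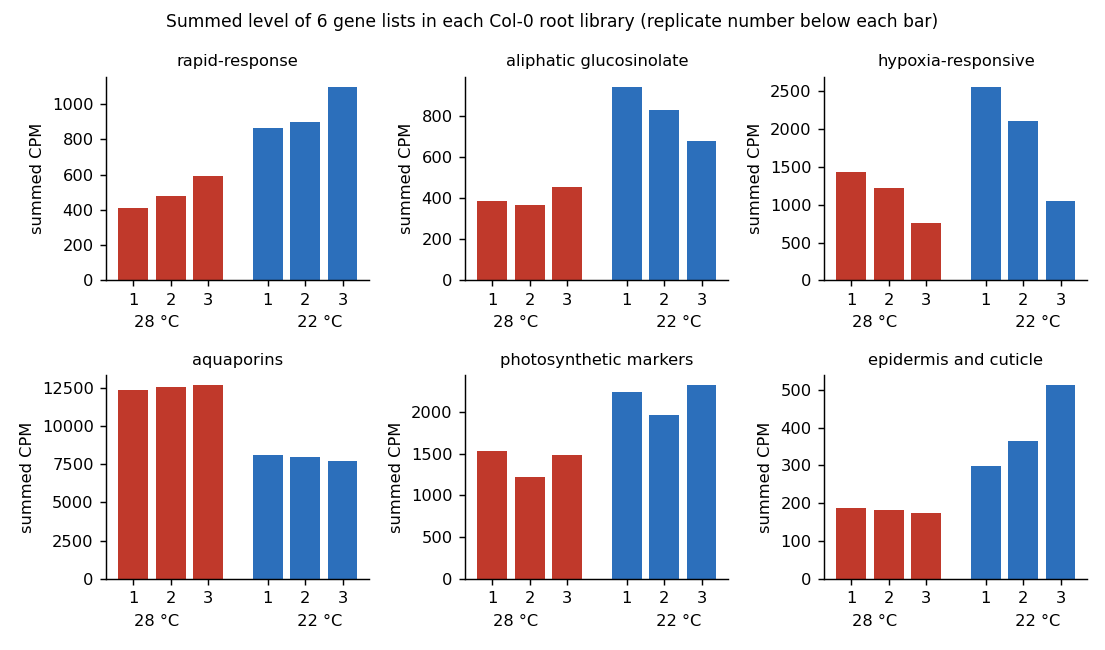
Summed CPM of the members of 6 gene lists in each Col-0 root library, as bars from 0, with 28 °C (red) left of 22 °C (blue) and the replicate number under each bar. The rapid-response, aliphatic glucosinolate, photosynthetic and epidermal sums are lower in each 28 °C library than in any 22 °C library, the aquaporin sum is higher, and the hypoxia sums overlap because of replicate 3 at 22 °C (1050 CPM).

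Flavonoid genes, known targets of HY5, were lower at 28 °C. Of 10 flavonoid and phenylpropanoid genes tested, 4 fell and none rose, with a median of −0.90. TT5, the chalcone isomerase, had 23.8, 20.2 and 28.5 CPM at 28 °C, against 84.5, 114 and 104 CPM at 22 °C (−2.06 ± 0.18, adjusted p = 4.67e-07). F3H, the flavanone hydroxylase, had 85.8, 80.7 and 87.1 CPM at 28 °C, against 227, 195 and 152 CPM at 22 °C, and FLS1, the flavonol synthase, had 54.8, 66.6 and 63.9 CPM at 28 °C, against 151, 132 and 129 CPM at 22 °C. TT4, the chalcone synthase that begins the pathway, was at −0.85 ± 0.12 (adjusted p = 0.000135), short of 2-fold. MYB4 and DTX35 lie outside the list and also fell. MYB4, a repressor of phenylpropanoid genes, had 33.8, 33.1 and 33.8 CPM at 28 °C, against 95.8, 105 and 107 CPM at 22 °C, and DTX35, a transporter, had 54.4, 49.5 and 51.7 CPM at 28 °C, against 162, 168 and 146 CPM at 22 °C.

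In hy5-215 roots TT4 and F3H stood far below their Col-0 levels at either temperature. TT4 had 7.74, 6.67 and 2.84 CPM in hy5-215 roots at 28 °C, against 59.7, 42.5 and 39.0 CPM at 22 °C, a larger log2 change than in Col-0 (difference 2.08 ± 0.28, adjusted p = 2.41e-05). F3H had 0.322, 0.953 and 2.84 CPM in hy5-215 roots at 28 °C, against 31.7, 29.6 and 17.6 CPM at 22 °C (difference 3.19 ± 0.44). The 28 °C values of F3H in hy5-215 roots are near 0, so the size of this difference is uncertain. MYB4 and DTX35 were not called in hy5-215 roots and differed between genotypes by −1.40 ± 0.20 and −1.57 ± 0.20.

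Cold-regulated genes fell in 3 of 8 cases, with a median of −0.77. LTI30, a dehydrin, had 47.9, 48.4 and 54.4 CPM at 28 °C, against 119, 134 and 139 CPM at 22 °C (−1.37 ± 0.14, adjusted p = 5.63e-06). KIN2 had 92.6, 93.3 and 159.7 CPM at 28 °C, against 263, 256 and 300.2 CPM at 22 °C. CBF2, the regulator above many cold genes, had 0, 1.14 and 4.56 CPM at 28 °C, against 9.07, 12.7 and 7.44 CPM at 22 °C (adjusted p = 0.0258), a call lost under 5 of 12 other settings, among them the removal of replicate 1 or 2 of either temperature. COR47, the most abundant member, had 890.1, 957 and 974 CPM at 28 °C, against 1151, 1077 and 926 CPM at 22 °C (adjusted p = 0.327), and its groups overlapped.

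Nutrient genes gave few calls. Of 17 nitrate and ammonium genes, 2 fell, with a median of −0.39: the nitrate reductase NIA1 had 27, 40 and 47.1 CPM at 28 °C, against 102, 103 and 53.8 CPM at 22 °C, and the ammonium transporter AMT1;2 had 58.4, 63.2 and 33.5 CPM at 28 °C, against 122, 114 and 111 CPM at 22 °C. Of 19 iron genes, 2 fell. FER1, an iron-storing ferritin, had 78.5, 59.4 and 47.5 CPM at 28 °C, against 147, 151 and 104 CPM at 22 °C, and NAS2, which makes the metal chelator nicotianamine, changed by −1.89 ± 0.35. PAP17, a phosphatase, was the 1 of 9 phosphate genes that rose, with 34.2, 31.2 and 25.1 CPM at 28 °C, against 9.64, 8.5 and 13.2 CPM at 22 °C. Among 10 sulfate genes edgeR and DESeq2 each called 0, and 4 had an unadjusted p under 0.05. SIR, the sulfite reductase, had 199, 241 and 247 CPM at 28 °C, against 307, 373 and 328 CPM at 22 °C (−0.55 ± 0.12, adjusted p = 0.00666, and 0.0857 without replicate 2 of 22 °C). Without replicate 3 of 22 °C, 3 nitrate and ammonium genes and 3 iron genes fell.

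In the root triterpene clusters, which make specialised lipids, 2 of 8 genes rose. MRN1, the marneral synthase, had 8.46, 10.7 and 31.2 CPM at 28 °C, against 0.567, 0.607 and 4.14 CPM at 22 °C (3.40 ± 0.66, adjusted p = 0.00324), and its adjusted p was 0.0606 without replicate 2 of 22 °C. Its neighbour CYP705A12 changed by 1.40 ± 0.32, a call lost without replicate 3 of 28 °C (adjusted p = 0.0586). Without replicate 3 of 22 °C, 3 of the cluster genes rose. In hy5-215 roots MRN1 was far above these levels at either temperature, at 129, 138 and 188 CPM at 28 °C and 83.2, 115 and 145 CPM at 22 °C. THAS1, the thalianol synthase, had 52.8, 59.8 and 82.9 CPM at 28 °C, against 105, 137 and 108 CPM at 22 °C (−0.84 ± 0.17, adjusted p = 0.00466, and 0.071 without replicate 2 of 22 °C), and its temperature effect differed between the root genotypes by −1.40 ± 0.22 (adjusted p = 0.000206).

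Peroxidases and glutathione transferases changed in both directions. Of 47 class III peroxidases, which oxidise wall and lignin precursors, 2 rose and 6 fell, with 1 rise in place of 2 without replicate 3 of 22 °C. AT2G38380 had 197, 162 and 106 CPM at 28 °C, against 356, 347 and 283 CPM at 22 °C, and its tandem neighbour AT2G38390 had 34.6, 40 and 54.4 CPM at 28 °C, against 78.3, 103 and 145 CPM at 22 °C. Reads of such near-identical neighbours, and of Prx37 and AT4G08780, may be split between them, so their separate values are uncertain. DOX1, an α-dioxygenase of fatty acids that the family rule includes, had 166, 218 and 363 CPM at 28 °C, against 111, 110.5 and 91.8 CPM at 22 °C. It was the 1 rise left without replicate 3 of 22 °C. The other gene that rose, AT3G49960, lost its call with DESeq2 (adjusted p = 0.134). Without replicate 3 of 22 °C AT3G49960 was short of 2-fold, at 0.81. Of 28 glutathione transferases, which couple glutathione to toxic compounds, 3 rose and 4 fell, with 2 and 5 without replicate 3 of 22 °C. GSTU25 had 34.2, 30.1 and 51.7 CPM at 28 °C, against 97.0, 90.5 and 94.3 CPM at 22 °C, while GSTF6 had 13.7, 13.3 and 41.1 CPM at 28 °C, against 5.1, 7.29 and 9.1 CPM at 22 °C, with its near-identical copy GSTF7 at similar levels. The call of GSTF6 was lost without replicate 3 of 28 °C, replicate 1 of 22 °C or replicate 2 of 22 °C (adjusted p up to 0.185), and that of GSTF7 without the same libraries and with DESeq2 (up to 0.38).

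Splicing factors of the SR class, another list added after the values were seen, gave 3 that rose and 1 that fell of 19 tested. SCL33 had 93.4, 102 and 114 CPM at 28 °C, against 44.2, 56.5 and 48.8 CPM at 22 °C (1.05 ± 0.16, adjusted p = 0.000255). SR30 had 121, 115 and 149.8 CPM at 28 °C, against 62.9, 58.3 and 72.8 CPM at 22 °C (adjusted p = 0.000344), at the 2-fold cutoff. RSZ22a had 34.6, 31.6 and 30 CPM at 28 °C, against 73.7, 76.5 and 62.0 CPM at 22 °C (−1.15 ± 0.16). All 3 that rose were also called higher in the Col-0 shoot, 2 of them in the hy5-215 root, and the interaction passed for none of the 19 in either comparison.

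Genes of the shoot epidermis and cuticle, the third list added after the values were seen, were lower in the warm root. Of 11 tested, 4 fell and none rose, and 3 fell without replicate 3 of 22 °C. PDF1, an epidermal protein gene, had 21.7, 14.9 and 15.6 CPM at 28 °C, against 35.2, 66.8 and 155 CPM at 22 °C, so that replicate 3 of 22 °C was the highest (−2.25 ± 0.36, and −1.55 ± 0.25 without that library). AT4G29020, a glycine-rich protein gene outside the list, had 34.6, 26.7 and 25.1 CPM at 28 °C, against 83.9, 137 and 310.2 CPM at 22 °C. The summed level of the list was 188, 182 and 174 CPM at 28 °C and 299, 365 and 512 CPM at 22 °C. All 17 photosynthetic markers tested had a log2 fold change below 0, of which LHCB2.1, a light-harvesting protein gene, fell (adjusted p = 0.0082), a call lost without replicate 2 of either temperature (adjusted p up to 0.0673), and none was called without replicate 3 of 22 °C. RBCS1A, the most abundant of them, had 259.8, 203 and 246 CPM at 28 °C, against 428, 384 and 414 CPM at 22 °C (−0.79 ± 0.11). The part of these shoot and epidermal transcripts in the other results was not tested.

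Several genes known from the warm response of the hypocotyl or the root were measured at low or similar levels in the root. HY5 had 61.6, 64.0 and 54.0 CPM at 28 °C, against 55.0, 60.1 and 77.7 CPM at 22 °C (−0.09 ± 0.16, adjusted p = 0.827). PIF4, the hypocotyl regulator named above, had 1 count in each 28 °C library and 1, 4 and 1 counts at 22 °C, too few to test. YUC8, an auxin synthesis enzyme, had 12.1, 12.2 and 17.1 CPM at 28 °C, against 16.4, 9.71 and 13.2 CPM at 22 °C, and its temperature effect was smaller in the root than in the shoot by −2.67 (adjusted p = 0.00556). CPD, a brassinosteroid synthesis enzyme, had 38.3, 46.1 and 42.2 CPM at 28 °C, against 34.6, 40.7 and 49.6 CPM at 22 °C (difference from the shoot −0.97, adjusted p = 0.00369). BAS1, which inactivates brassinosteroids, was at 0.48 ± 0.40 (adjusted p = 0.562).

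Of 28 auxin response genes, 1 rose and 1 fell, with a median of 0.24. IAA19, an early auxin-induced repressor, had 12.9, 12.6 and 10.6 CPM at 28 °C, against 5.1, 2.43 and 6.62 CPM at 22 °C (1.38 ± 0.39, adjusted p = 0.0387), a call lost under 8 of 13 other settings, among them the removal of any library but replicate 3 of 22 °C. AT3G12830, a SAUR gene, fell by 1.17 on the log2 scale, a call lost without replicate 2 of either temperature (adjusted p up to 0.0865). Of 18 auxin synthesis and transport genes, CYP79B2, which makes indole-3-acetaldoxime, fell, with 36.2, 47.6 and 61.6 CPM at 28 °C, against 80.5, 92.3 and 127 CPM at 22 °C. Both edgeR and DESeq2 called 0 among 15 brassinosteroid genes, 13 light and temperature regulators, 7 type-A cytokinin response regulators and 6 genes of the histone variant H2A.Z and its exchange complex, where 2, 2, 1 and 0 genes had an unadjusted p under 0.05. Of 10 jasmonate genes JAZ1, a repressor induced by jasmonate, fell, with 30.2, 31.2 and 38.4 CPM at 28 °C, against 51.6, 69.8 and 85.2 CPM at 22 °C, and of 9 ethylene genes ACS6 fell. Without replicate 3 of 22 °C, no jasmonate gene and no auxin synthesis or transport gene was called.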

How the data were processed

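Total RNA of Arabidopsis roots was profiled by 3′Tag-Seq, which counts fragments from the 3′ end of polyadenylated transcripts. The deposited values are whole-number read counts per gene: per the labels the authors checked reads with FastQC, aligned them to TAIR10 with HISAT2 and counted with HTSeq, the versions and the strand setting being not given in the sources used here. Because 3′ ends were counted, CPM was not divided by transcript length. Genotype came from the sample titles, and no batch is given in the labels.

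The 6 Col-0 root libraries were tested with edgeR 4.0.16 and limma 3.58.1 in R 4.3.3: filterByExpr (minimum count 10, minimum total 15), TMM scaling, glmQLFit and glmQLFTest, two-sided, with Benjamini-Hochberg adjustment over all genes tested. All adjusted p-values in the text come from these edgeR fits unless DESeq2 is named. Standard errors are the log2 fold change over the square root of the F statistic and approximate. Interaction terms (Col-0 root with hy5-215 root, and Col-0 root with Col-0 shoot, 12 libraries each) were called by adjusted p alone, and CPM values of hy5-215 roots come from a scaling over those 12 libraries. The hy5-215 shoot was not used. The pipeline was checked on simulated counts. Library totals of 1212281 to 2627108 counts limit the precision of low genes, and count intervals (exact, 95%) and the floor of 3 counts cover counting error only. The tables held 0 columns of other samples.

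Named genes were the 10 largest and the 10 most significant changes in each direction, called members of the gene lists (the 8 most significant of long lists), each list's most abundant member and fixed thermomorphogenesis genes. CASP1, CASP2, PER64, CCA1, ORA47 and a few other members were named outside this rule, after their values were seen. The members and lists were chosen with earlier results of these data known. The lists of aliphatic glucosinolate, SR splicing and shoot epidermis genes were added after the values were seen. A list of ribosomal proteins was set aside because its symbol rule also caught resistance genes and organelle proteins, and a ubiquitin protease and a theta-class transferase were dropped from family rules. Replicate numbers were not treated as pairs: correlations of deviations from the group means between same-numbered libraries were −0.0419, 0.00954 and −0.0708. Alternatives were DESeq2 1.42.0, library-size scaling, other filters, thinned counts, a fit with hy5-215 roots, a replicate block, calls by adjusted p alone and the removal of each library in turn. A result withheld from the text is not reported here.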

Additional observations from a re-analysis of the deposited data

Results flagged for a closer look

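For the named genes below, the temperature effect (log2 of 28 °C over 22 °C) differed between the Col-0 root and another group of libraries in a test of the difference itself, an interaction term in edgeR's quasi-likelihood test with adjusted p over all genes. Most genes were named for their difference in the Col-0 root, so the libraries that chose them are also in the interaction.

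Between the root genotypes (Col-0 minus hy5-215), 32 genes had a lower value in Col-0 and 7 a higher one, with adjusted p of 3.26e-08 to 0.0294. The differences below 0 were −4.37 for CAF1a, −2.85 for AT4G27652, −2.60 for NUDT21, −3.74 for STZ, −3.49 for AT3G10930, −2.14 for AT4G29020, −1.95 for AT1G56660, −1.21 for NSP1, −2.22 for RHL41, −1.57 for DTX35, −1.40 for MYB4, −1.97 for ERF104, −2.46 for WRKY40, −3.75 for BAP1, −1.29 for ZAT6, −1.39 for JAZ1, −2.63 for ADH1 and −2.14 for AT4G33070. They were also −2.21 for SUS4, −6.35 for AT5G10040, −1.53 for AT3G12830, −1.16 for CYP79B2, −1.17 for NIA1, −1.19 for KIN2, −2.79 for ACS6, −1.01 for AT2G38380, −1.30 for XTH31, −1.40 for THAS1, −2.12 for SZF1, −0.57 for COR47, −1.13 for RBCS1A and −0.83 for PYK10. AT5G10040 was near 0 in hy5-215 roots at 22 °C and had too few counts in hy5-215 roots for a test of its own, so the size of its difference is uncertain. The differences above 0 were 3.02 for MRN1, 2.60 for AT3G19430, 0.89 for XTH15, 3.19 for F3H, 2.68 for FLS1, 0.65 for TIP2 and 2.08 for TT4.

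Between the tissues (Col-0 root minus Col-0 shoot), 21 genes had a lower value in the root and 8 a higher one, with adjusted p of 1.42e-06 to 0.0415. The differences below 0 were −2.12 for RTFL12, −2.77 for AT4G29020, −3.29 for XTH15, −0.996 for MBF1C, −0.87 for AT1G56660, −1.26 for NSP1, −0.84 for DTX35, −1.04 for MYB4, −1.27 for CYP79B2, −0.87 for FER1, −0.90 for KIN2, −1.38 for LHCB2.1, −1.15 for AT2G38380, −0.89 for XTH31, −3.36 for PIF4, −0.97 for CPD, −2.67 for YUC8, −1.23 for AT4G27450, −0.94 for PHYA, −0.68 for COR47 and −0.69 for PYK10. The differences above 0 were 1.90 for AT5G51440, 1.58 for ZAT6, 1.54 for PAP17, 2.85 for GSTF6, 1.69 for GSTU24, 1.33 for SZF1, 0.82 for MYC2 and 1.17 for TT4. PIF4 had too few counts in the root for a test of its own.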

How the results depend on the processing

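The counts of 149 genes higher and 235 lower became 109 and 207 with DESeq2, 171 and 216 with library size alone, 227 and 308 with no filter on low counts, 114 and 207 with counts thinned to the shallowest library, 174 and 282 in a fit with the hy5-215 root, and 413 and 583 with no fold cutoff. With the replicate number as a block (replicate block) they were 117 and 206, and the interactions 488 genes between tissues and 263 between genotypes. The numbers do not pair the samples. Leaving out 1 library gave 81 to 179 genes higher and 169 to 258 lower. The lowest counts of genes higher were 97 without replicate 2 of 28 °C and 81 without replicate 2 of 22 °C. The genotype interaction (240 genes) ranged from 142 to 251, with 147 without replicate 2 of 28 °C and 142 without replicate 2 of 22 °C, and the tissue interaction (498 genes) from 368 to 516. DESeq2 also called 312 of the 384 genes in the same direction and thinning 266. The fewest were kept without replicate 2 of 22 °C (222) and without replicate 2 of 28 °C (245). Of the values of named genes with an adjusted p no higher than 0.05, 1268 kept direction and side of the threshold over the alternatives, 97 lost the threshold and 0 changed sign. Signs changed in uncalled genes near 0. Over single libraries left out, the log2 fold change ran from −0.19 to 0.056 for HY5, −0.084 to 0.17 for CPD, −0.12 to 0.29 for YUC8, −0.089 to 0.084 for HSF4, −0.094 to 0.34 for AT4G27450, −0.068 to 0.070 for IAA9, −0.032 to 0.25 for PHYA, −0.18 to 0.10 for ABCG37, −0.059 to 0.23 for CYP705A5, −0.16 to 0.078 for HTA9 and −0.017 to 0.28 for EXPA9. With library size alone HSF4 was at 0.023, IAA9 at 0.027 and ABCG37 at 0.023, IAA9 was at 0.00081 with no filter and 0.0075 thinned, and HY5 was at 0.056 thinned. The cause of these shifts was not tested.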
